A study of Macaca mulatta with 102 samples.

Results

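MS4A1, CD79B, FCRLA, MZB1 and JCHAIN are transcripts of B cells and of the plasma cells that B cells become, and they were followed here in CD3+ cells sorted from the blood of rhesus macaques. The 5 genes were found through 12 probe sets that the platform annotation pairs with exactly 1 of them, among 52865 probe sets on the array and 14132 genes named by at least 1 such probe set. Values are log2 RMA signals, so a difference of 1 is a doubling. Testing was limited to probe sets with 3 or more arrays at or above 5.21, which is the median over the whole table, and 9 of the 12 qualified. Each gene is represented by its probe set with the highest mean.

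B cells recognise antigen through a membrane immunoglobulin whose signal is passed on by CD79A and CD79B, and they carry CD20, the product of MS4A1, on their surface. FCRLA encodes an Fc receptor-like protein that stays inside B cells. When B cells turn into plasma cells they lose CD20, enlarge the endoplasmic reticulum and secrete antibody with the help of MZB1, a chaperone cofactor of immunoglobulin assembly, and JCHAIN, the peptide that joins immunoglobulin M and immunoglobulin A into polymers. MZB1 and JCHAIN are also expressed by plasmacytoid dendritic cells. CD3 is part of the T cell receptor complex, so these genes in a CD3 sort are a readout of other cells that remain in it, or of low or induced expression in the sorted cells.

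The 102 arrays came from 66 animals in 16 groups, in 6 labelled batches. Healthy animals gave 46 arrays of 45 animals, and the 2 arrays of animal R.201 were averaged, which left 1 array for each animal and time. The other 56 arrays followed a transplant of hematopoietic cells, autologous in the Auto groups and allogeneic in the others. The Auto groups were Auto.D14 (day 14, n = 3), Auto.D36 (days 30 to 36, n = 4) and Auto.D100 (day 100, n = 4). NoRx.F had no prophylaxis against graft-versus-host disease (days 6 to 12, n = 4), and Siro.F had sirolimus, an inhibitor of mTOR (days 12 to 24, n = 4). Tacrolimus, a calcineurin inhibitor, with methotrexate was given in Tac.Mtx.D14 (day 14, n = 3) and Tac.Mtx.F (days 26 to 67, n = 3). Belatacept, a fusion protein that blocks CD28 costimulation, was combined with sirolimus in Bela.Siro.D14 (day 14, n = 3), Bela.Siro.D30 (day 30, n = 2) and Bela.Siro.F (days 26 to 105, n = 7). KY1005, an antibody to OX40 ligand, was given alone in KY1005.D14 (days 14 to 16, n = 2) and KY1005.F (days 16 to 23, n = 3), and with sirolimus in KY1005.Siro.D14 (day 14, n = 5), KY1005.Siro.D28 (day 28, n = 5) and KY1005.Siro.F (days 97 to 106, n = 4). The labels give regimens as abbreviations, do not spell out F, and state no dose, age or sex. Each array is 1 animal at 1 time, and several animals recur between groups.

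The T cell identity of the sort was checked with 16 T cell genes. Several of them, CD3D, CD3G, CD247, CD2 and LCK included, have no single-gene probe set, and the 10 measured had healthy means from 6.76 to 12.5, all above the median of all values. Array medians ran from 5.13 to 5.35. All KY1005 arrays lay in batch 6, which also held 7 healthy arrays, and all tacrolimus and belatacept arrays lay in batch 3 with 13 healthy arrays. In 6 arrays the log2 ratio of the 3' to the 5' actin control probe sets, which rises as RNA is degraded, was above 2.5. They were 2 of the 3 Auto.D14 arrays (R.201 and R.202) and 4 healthy arrays.

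MS4A1 and JCHAIN were called lower than in healthy animals in 4 and 3 groups, CD79B and MZB1 were called higher in 2 groups each, and FCRLA had no call. MS4A1 and JCHAIN were below the healthy median in 44 and 50 of the 56 arrays taken after transplant. MZB1 was below it in 11 and CD79B in 17, and 9 and 14 arrays exceeded the highest healthy animal. FCRLA was below the healthy median in 38 arrays, with 0 below the lowest healthy animal and 1 above the highest. Animals recur among the 56 arrays. The shares of all probe sets below the healthy median or outside the healthy range were not computed, here or for single groups below. Among 75 differences from healthy controls (5 genes in 15 groups), 7 (9.33%) passed an adjusted p of 0.05 as lower and 4 (5.33%) as higher. Over all probe sets tested in the same 15 comparisons, 4.02% of differences were called lower and 4.18% higher, so the share of higher calls was near the background. Of the 7 lower calls 4 were of MS4A1 and 3 of JCHAIN, which correlate in healthy animals. JCHAIN was tested only because it is high in healthy animals. Its 3 calls and its 50 arrays below the healthy median therefore cannot count towards an excess over the background. The 7 lower calls were 3 within the batches that hold the group, 4 with high-actin arrays removed and 14 with array weights. A moderated F test over the 16 groups passed for MS4A1, CD79B, MZB1 and JCHAIN and missed for FCRLA (adjusted p = 0.0616), against 51.7% of all probe sets. Fewer B or plasma cells in the sort and less of their RNA per cell cannot be told apart in bulk RNA. All 15 comparisons share the same healthy animals. In the groups without a called member the share of all probe sets past the threshold, in either direction, was 9.26% in Auto.D36, 2.48% in Auto.D100, 0.88% in Tac.Mtx.D14, 14.3% in Tac.Mtx.F, 2.68% in Bela.Siro.D14, 1.14% in Bela.Siro.D30, 10% in Bela.Siro.F, 0.202% in KY1005.D14 and 6.84% in KY1005.Siro.F.

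**Figure D1:**
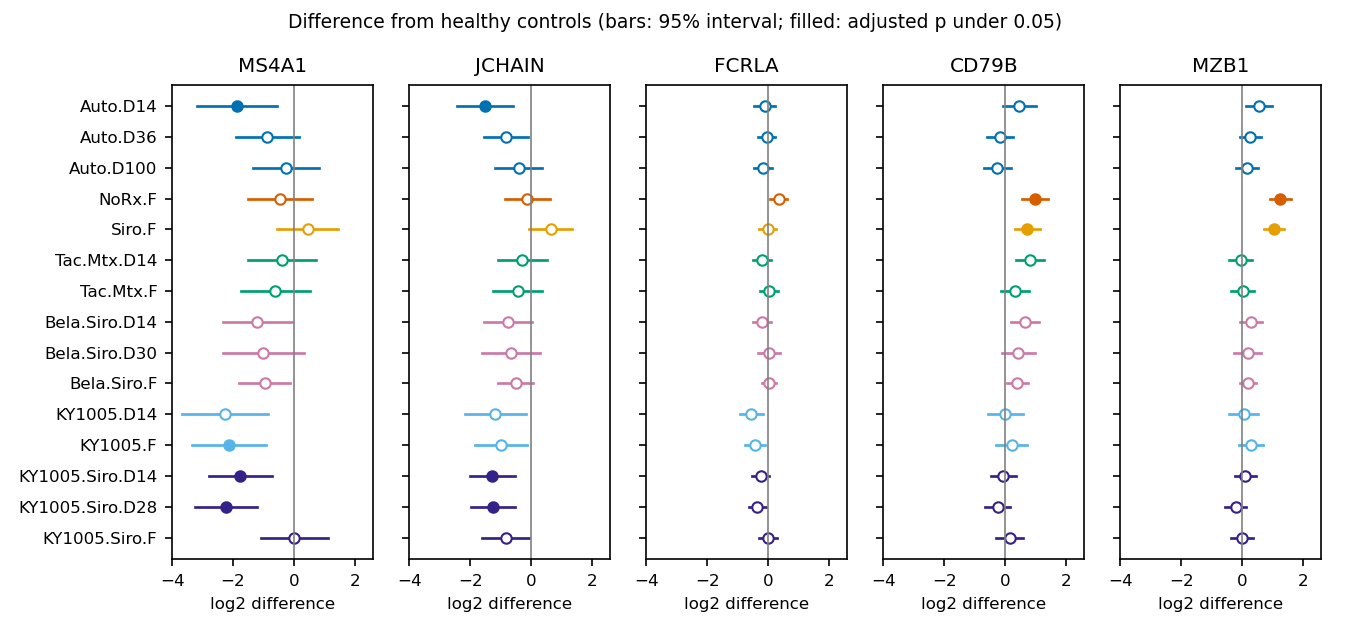
Difference of each of the 15 groups after transplant (vertical axis) from healthy controls for the 5 genes, in log2 units (horizontal axis). Points are limma estimates with the batch as a term, bars their 95% intervals, and filled points passed an adjusted p of 0.05. The 7 lower calls lie in MS4A1 and JCHAIN and the 4 higher calls in CD79B and MZB1.

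MS4A1, the CD20 gene, was lower than in healthy animals after autologous transplant at day 14 and in 3 of the 5 groups given KY1005. Its healthy values ran from 3.88 to 7.73 with a median of 5.31. In Auto.D14 R.200 had 3.66, R.201 3.71 and R.202 4.05. All 3 lay below the healthy median and below the 4 healthy arrays of their own batch, whose lowest was 4.83. The fitted difference was -1.87 ± 0.65 (SE, adjusted p = 0.0337), in a comparison where 19.4% of all probe sets passed. It missed the threshold without any 1 of the 3 animals (adjusted p = 0.117 without R.201, 0.114 without R.202 and 0.0628 without R.200) and with the high-actin arrays removed, where it was -2.03 ± 0.99 (adjusted p = 0.584). Within batch 5 alone it was -2.05 ± 0.54 (adjusted p = 0.0219).

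With KY1005 alone MS4A1 was 3.41 (R.210) and 3.62 (R.212) in KY1005.D14, and 3.44 (R.206), 3.72 (R.212) and 3.80 (R.211) in KY1005.F. These 5 arrays, with R.212 in both groups, lay below every one of the 45 healthy animals. The share of all probe sets that did so was not computed. The difference from healthy was -2.26 ± 0.71 for KY1005.D14 and did not pass (adjusted p = 0.140, 0.202% of all probe sets called). For KY1005.F it was -2.12 ± 0.61 (adjusted p = 0.0370, 3.28% called). The KY1005.F call was lost within batch 6 alone at the same size (adjusted p = 0.148), without a filter on low values (0.0551), with the high-actin arrays removed (0.0598) and without any 1 of its animals (0.197 without R.211, 0.145 without R.206 and 0.0739 without R.212). With both KY1005 groups pooled and the arrays of R.212 averaged, the difference was -2.19 ± 0.55 (adjusted p = 0.0115).

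With KY1005 and sirolimus at day 14, MS4A1 was 3.37 in R.217, 3.37 in R.219, 3.91 in R.220, 4.13 in R.221 and 5.28 in R.218. At day 28 the same animals had 3.93, 3.26, 3.80, 3.21 and 3.52 in that order. R.218 at day 14 stood inside the healthy range, and 4 of the 5 arrays at day 28 lay below all healthy animals. The differences from healthy were -1.76 ± 0.52 at day 14 (adjusted p = 0.0342, 4.15% called) and -2.23 ± 0.52 at day 28 (adjusted p = 0.00242, 12.1% called). Within batch 6 the day 14 call was lost (adjusted p = 0.136) and the day 28 call kept (adjusted p = 0.0356). The day 14 call also missed the threshold without a filter on low values (0.0519) and without R.217 (0.101), R.219 (0.110), R.220 (0.0582) or R.221 (0.0711), while the day 28 call passed in every alternative tried.

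Markers of other cells also differed in the groups of lower MS4A1. Of 6 platelet genes measured, 1 was called lower in each of KY1005.F, KY1005.Siro.D14 and KY1005.Siro.D28 and 0 were called by limma in KY1005.Siro.F. It was PF4, a platelet chemokine, at -3.35 ± 0.98, -2.80 ± 0.83 and -2.97 ± 0.83, and 0.55 ± 0.89 in KY1005.Siro.F. Platelet scores ran from -1.85 to 0.85, -1.29 to 0.83 and -1.65 to 0.18 in these 3 groups, against -1.21 to 0.92 in healthy animals. Of 10 monocyte and myeloid genes, 2 were higher in KY1005.F and 3 in KY1005.Siro.D14, with S100A8 and S100A9, calcium-binding proteins of myeloid cells, at 4.35 ± 1.13 and 4.38 ± 1.17 in KY1005.F. Over all probe sets 3.28% passed in KY1005.F, 4.15% in KY1005.Siro.D14 and 12.1% in KY1005.Siro.D28, in either direction. Myeloid scores ran from 0.32 to 2.72 in KY1005.F, 1.23 to 2.39 in KY1005.Siro.D14, -1.14 to 1.23 in KY1005.Siro.D28 and 0.52 to 1.78 in Auto.D14, against -1.10 to 1.40 in healthy animals. Their part in the MS4A1 differences was not tested.

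Between days 97 and 106, MS4A1 in the KY1005 and sirolimus animals was 4.32 (R.217), 4.52 (R.220), 5.79 (R.221) and 8.49 (R.219). The R.219 value exceeded the highest healthy animal, and the other 3 lay inside the healthy range. By the main probe sets R.219 also exceeded the highest healthy animal in CD79B (8.20 against 7.67) and FCRLA (6.48 against 6.44). Its B cell score did so too (0.37 against 0.24). Its JCHAIN (3.90) and MZB1 (5.49) did not, nor did the second probe sets of CD79B (6.22) and FCRLA (4.45). The group did not differ from healthy by the test (0.01 ± 0.55, 95% interval -1.10 to 1.11). Each of the 4 animals was higher than at its own day 28, by 0.39 to 5.22. The difference from day 28 was 2.24 ± 0.59 (adjusted p = 0.0240), where 1.64% of all probe sets rose. It missed the threshold without R.219 in KY1005.Siro.F (1.33 ± 0.60, adjusted p = 0.732), without R.221 there (0.0535), without R.219 or R.221 at day 28 (0.0551 and 0.0633), and with only the groups compared (0.396). With the animal as a fixed replicate block in a paired fit it was 2.23 ± 0.82 (adjusted p = 0.370). Beside this, 6 of 10 monocyte and myeloid genes measured were higher than in healthy animals in KY1005.Siro.F (median difference 2.39). In that comparison 6.84% of all probe sets passed in either direction. The R.219 array stood apart with a myeloid score of 4.34 and a core T cell score of -0.73 against the healthy mean, where scores are mean log2 differences over a list and healthy core T cell scores reached no lower than -0.43. Their part in the MS4A1 value was not tested.

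The other groups of lower MS4A1 did not pass. Bela.Siro.F ran from 3.66 to 5.68 with a median of 4.23, and its difference was -0.96 ± 0.41 (adjusted p = 0.129). The means of Bela.Siro.D14 (4.11), Bela.Siro.D30 (4.31) and Auto.D36 (4.48) also lay below the healthy mean of 5.47. So did those of Tac.Mtx.F (4.70), Tac.Mtx.D14 (4.92) and Auto.D100 (5.38). In Auto.D36 the 3 arrays of batch 4 lay below all 6 healthy arrays of that batch, whose lowest was 4.34. R.62 of Auto.D36, in batch 2, had 6.19. The 4 NoRx.F arrays were 4.86, 4.88, 4.89 and 4.92, an SD of 0.02 against 0.92 in healthy animals, and their difference was -0.46 ± 0.52 (adjusted p = 0.566). Siro.F stood highest in the order of group means at 5.87, with 6.67 in R.18, 6.24 in R.13, 6.11 in R.16 and 4.48 in R.17, and its difference was 0.45 ± 0.50 (adjusted p = 0.665). KY1005.D14 stood lowest at 3.51. In all 15 steps of the order from highest to lowest mean, the ranges of neighbouring groups overlapped.

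JCHAIN, the joining chain of polymeric antibodies, was lower than in healthy animals in Auto.D14 and in both early groups given KY1005 with sirolimus. Its probe set reached 5.21 in 9 arrays, 7 of them healthy, so it was tested only because of the group where it is high, and its lower calls are no independent support for the MS4A1 calls. Healthy values ran from 3.41 to 7.22 with a median of 4.64. In Auto.D14 it was 3.01 (R.202), 3.55 (R.200) and 3.65 (R.201), and the difference was -1.52 ± 0.46 (adjusted p = 0.0155). R.202 lay below every healthy animal, and the call was lost without it (-1.33 ± 0.53, adjusted p = 0.137) and with the high-actin arrays removed (-1.39 ± 0.69, adjusted p = 0.594). The call also missed the threshold with the mean of both JCHAIN probe sets (-0.61 ± 0.24, adjusted p = 0.0557), and within batch 5 it was -1.55 ± 0.32 (adjusted p = 0.00920).

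In KY1005.Siro.D14, JCHAIN was 3.44 in R.218, 3.48 in R.217, 3.55 in R.219, 3.61 in R.220 and 3.78 in R.221. In KY1005.Siro.D28 it was 3.44 in R.219, 3.56 in R.221, 3.63 in R.218, 3.67 in R.220 and 3.70 in R.217. All 10 values lay below the lowest of the 7 healthy arrays of batch 6, which was 3.89, but inside the range of all healthy animals. The differences were -1.27 ± 0.37 at day 14 (adjusted p = 0.0305) and -1.24 ± 0.37 at day 28 (adjusted p = 0.0167). Both calls were lost within batch 6 at the same sizes (adjusted p = 0.108 and 0.0664). The day 14 call was also lost with only the groups compared (0.0695) and without R.217 (0.0681), R.219 (0.0669) or R.221 (0.0543). The 2 healthy animals with the highest JCHAIN, R.213 at 7.22 and R.200 at 6.72, were also high in MS4A1, and R.213 belonged to batch 6.

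By days 97 to 106 of KY1005 and sirolimus JCHAIN was 3.35 (R.217), 3.90 (R.219), 4.15 (R.220) and 4.63 (R.221), with a difference from healthy of -0.83 ± 0.39 (adjusted p = 0.178). All 4 lay below the healthy median. R.219, which held the highest MS4A1 value of the series, was thus not high in JCHAIN. The rise from day 28 was 0.41 ± 0.42 (adjusted p = 0.843). After autologous transplant JCHAIN was higher at day 100 than at day 14 in each of 3 animals, by 0.60 to 1.67, and the fitted difference of 1.12 ± 0.48 did not pass (adjusted p = 0.144). MS4A1 in those animals rose by 2.30 in R.200 and 1.91 in R.201 and changed by -0.10 in R.202 (fitted 1.60 ± 0.69, adjusted p = 0.136).

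**Figure D2:**
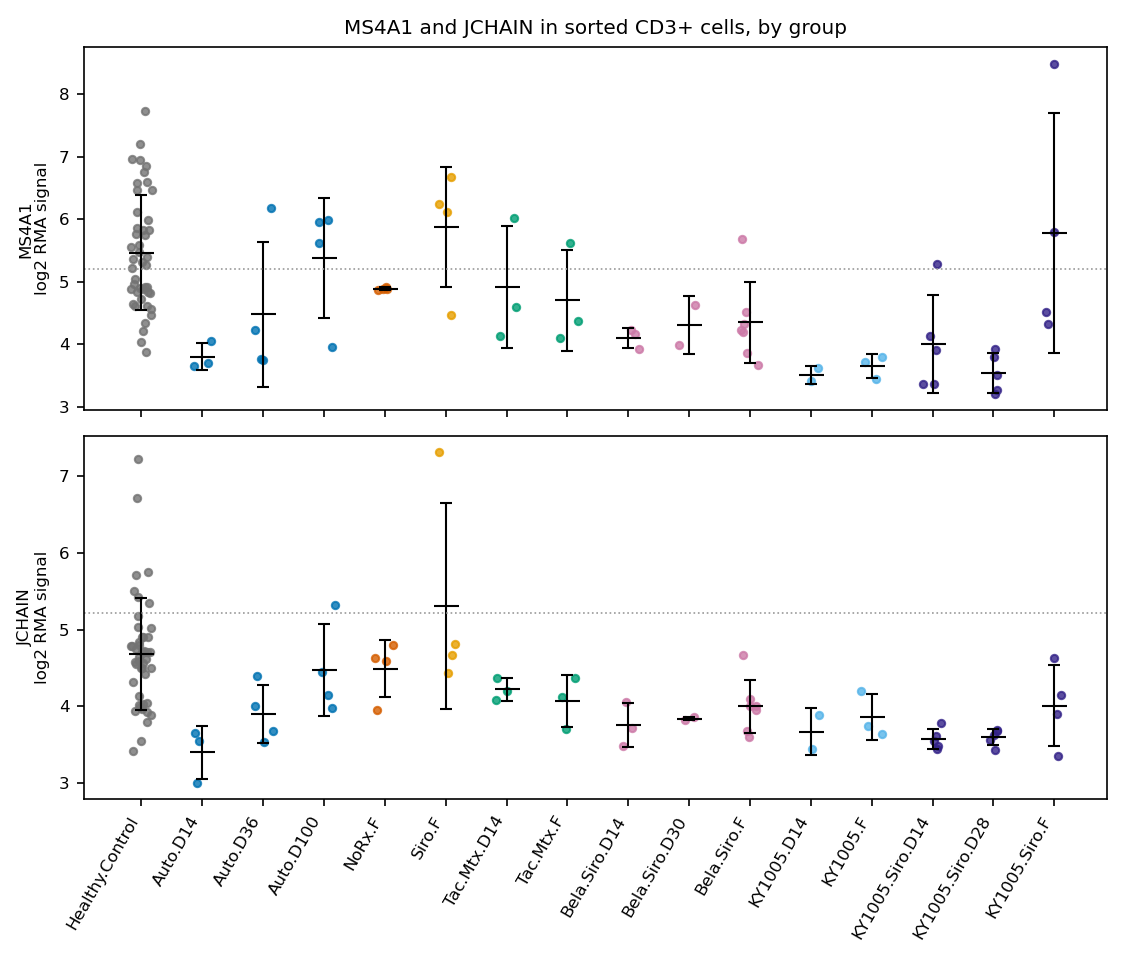
MS4A1 (top) and JCHAIN (bottom) in log2 RMA signal (vertical axis) for each array of the 16 groups (horizontal axis). Horizontal marks are group means, error bars SD, and the dotted line is the median of all values, 5.21. The 5 arrays of KY1005.D14 and KY1005.F lie below all 45 healthy animals in MS4A1, and R.18 of Siro.F stands alone at 7.31 in JCHAIN.

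MZB1, the chaperone cofactor of antibody assembly, was higher without prophylaxis and with sirolimus alone. Healthy values ran from 4.90 to 6.05 with a median of 5.38. In NoRx.F it was 7.12 in R.50, 6.91 in R.52, 6.79 in R.51 and 5.64 in R.53. The first 3 lay above every healthy animal and R.53 inside the healthy range. The first 3 are of batch 1 and days 6 to 8, and R.53 is of batch 2 and day 12. R.53 lay above the 10 healthy arrays of its own batch, whose highest was 5.50. The difference was 1.25 ± 0.17 (adjusted p = 1.19e-08), in a comparison where 27.5% of all probe sets passed and 2 of the 5 members did. In Siro.F it was 7.29 in R.18, 6.58 in R.13, 6.19 in R.16 and 5.61 in R.17, and again 3 of 4 arrays exceeded every healthy animal. The difference was 1.05 ± 0.17 (adjusted p = 4.9e-06), where 8.9% of all probe sets passed and again 2 of the 5 members did. The other MZB1 probe set gave 2.14 ± 0.28 and 1.33 ± 0.26, and the probe sets correlated at r = 0.91 over all arrays. That probe set passed the filter through 3 NoRx.F arrays, 1 of Siro.F and 1 of Bela.Siro.F. The filter thus favoured higher values in NoRx.F above all, and the differences by that probe set are no independent support. Both calls passed in every alternative tried, including within the batches that held the groups (1.26 ± 0.24 and 1.07 ± 0.23).

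Genes of cell division were higher in these groups and in others. Of 12 division genes measured, 12 were higher than in healthy animals in NoRx.F (median 2.58) and 11 in Siro.F (median 1.25), where 19.0% and 6.04% of all 10718 genes were higher. The largest differences in NoRx.F were those of CCNB2, a mitotic cyclin (4.69 ± 0.47), TYMS, which makes thymidylate (4.02 ± 0.50), TOP2A, a topoisomerase (3.64 ± 0.50) and MKI67, a proliferation marker (3.30 ± 0.37). Within Siro.F the division score and MZB1 had the same order, with scores of 2.40 in R.18, 1.58 in R.13, 0.88 in R.16 and 0.58 in R.17. R.18 and R.13 are of batch 2, and R.16 and R.17 of batch 1. Within NoRx.F the scores were 3.15 in R.50, 3.10 in R.52, 2.15 in R.53 and 1.85 in R.51, so R.53, with the lowest MZB1, did not have the lowest score. Over all arrays the division score and MZB1 correlated at r = 0.62. Within the groups after transplant r was 0.35, and over the 45 healthy animals 0.14. High division scores also occurred with MZB1 inside the healthy range, at 2.54 and 5.60 in R.211 of KY1005.F and at 1.91 and 5.49 in R.20 of Tac.Mtx.D14. Mean division scores near the 1.36 of Siro.F were found in groups with no MZB1 call, at 1.47 in KY1005.D14, 1.35 in Auto.D36, 1.31 in KY1005.F, 1.24 in Auto.D14 and 1.23 in Tac.Mtx.F. The part of division in MZB1 was not tested.

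Genes of natural killer and myeloid cells were read in the same groups. Of 5 natural killer genes measured, 2 were lower in NoRx.F, KLRF1, a lectin-like receptor (-2.79 ± 0.64), and NCR3, an activating receptor (-0.38 ± 0.14). No natural killer gene passed in Siro.F, where KLRF1 was -1.44 ± 0.61 (adjusted p = 0.133). Over all probe sets 27.5% passed in NoRx.F and 8.9% in Siro.F, in either direction. Natural killer scores ran from -2.27 to -0.03 in NoRx.F and -1.42 to 0.29 in Siro.F, against -1.08 to 0.92 in healthy animals. Of 10 monocyte and myeloid genes 3 were higher in NoRx.F, near the share of all probe sets that passed there. Myeloid scores ran from -0.03 to 2.6 in NoRx.F and -0.02 to 1.28 in Siro.F, against -1.10 to 1.40 in healthy animals. Their part in the MZB1 and CD79B differences was not tested.

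**Figure D3:**
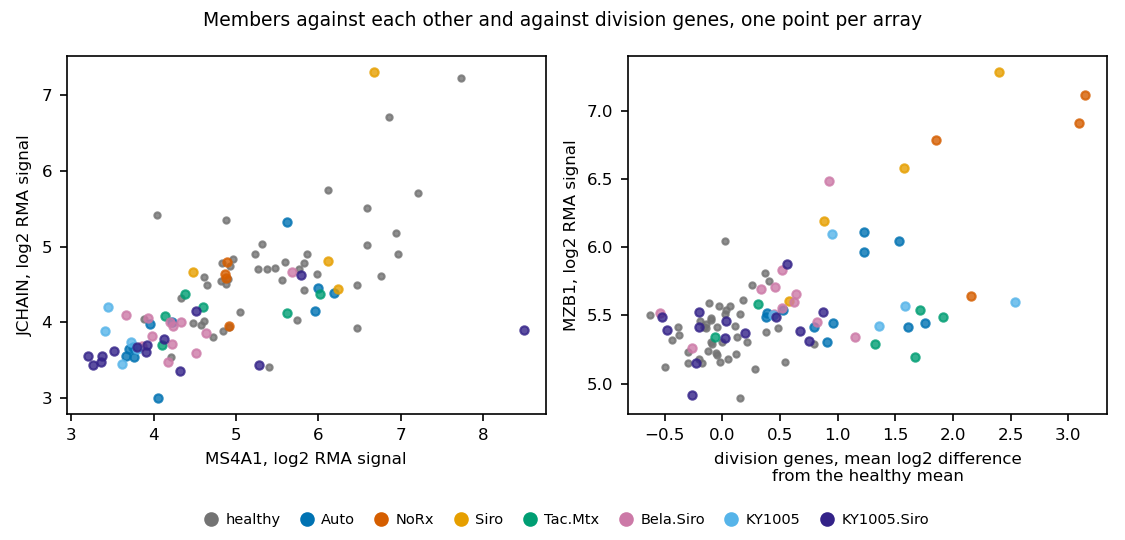
Left, JCHAIN (vertical axis) against MS4A1 (horizontal axis), both in log2 RMA signal. Right, MZB1 (log2 RMA signal, vertical axis) against the mean log2 difference of 12 division genes from the healthy mean (horizontal axis). Each point is an array, coloured by regimen. R.219 of KY1005.Siro.F at 8.49 in MS4A1 and 3.90 in JCHAIN lies off the course of the other arrays, and R.50 and R.52 of NoRx.F and R.18 of Siro.F are high on both axes at the right.

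Genes that serve secretion or mark plasma cells were set beside MZB1 from 2 further lists. The share of all probe sets past the threshold, in either direction, was 27.5% in NoRx.F and 8.9% in Siro.F. Of 9 plasma cell genes measured, 5 were higher in NoRx.F (median 0.46) and 1 in Siro.F (median 0.14). The 4 largest in NoRx.F were SLAMF7, a surface receptor (1.64 ± 0.52), FKBP11, a prolyl isomerase of the endoplasmic reticulum (0.63 ± 0.13), XBP1, a transcription factor of secretory cells (0.58 ± 0.14) and IRF4, a transcription factor of plasma cells and activated lymphocytes (0.57 ± 0.18). Activated T cells also express several of these genes, and TNFRSF17, the plasma cell receptor BCMA, did not pass the filter. Of 14 genes of the secretory endoplasmic reticulum, 7 were higher and 1 lower in NoRx.F, and 2 were higher in Siro.F. SDF2L1 (1.38 ± 0.13), SEC61B (1.18 ± 0.09), SPCS2 (1.07 ± 0.34) and SEC24D (0.93 ± 0.26) had the largest differences in NoRx.F. Of 6 plasmacytoid dendritic genes measured, 2 were higher in NoRx.F and 1 in Siro.F, with IRF8, which B cells, monocytes and activated T cells also express, up by 2.52 ± 0.30 and 2.07 ± 0.29. LILRA4, CLEC4C and IL3RA, which define those cells, have no single-gene probe set.

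MZB1 had no call in the other 13 groups. In Auto.D14 it was 6.05 (R.202), 5.96 (R.201) and 5.44 (R.200), all 3 above the highest of the 4 healthy arrays of batch 5 (5.42), with a difference of 0.55 ± 0.22 that missed the threshold (adjusted p = 0.0599). R.202 and R.201, the higher values, are the Auto.D14 arrays of high actin ratio. In KY1005.F it was 6.10 in R.206, above every healthy animal, beside 5.60 in R.211 and 5.50 in R.212. Single arrays above every healthy animal were also R.62 of Auto.D36 (6.11) and R.66 of Bela.Siro.F (6.48). KY1005.Siro.D28 stood lowest of all groups at a mean of 5.23 ± 0.20 (SD, n = 5), and each of its 5 animals was lower than at its own day 14, with changes of -0.57 to -0.06. The fitted step was -0.32 ± 0.19 (adjusted p = 0.594).

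CD79B, the signalling chain of the B cell receptor, was higher in the same groups as MZB1 by its main probe set. Healthy values ran from 6.25 to 7.67 with a median of 7.04. In NoRx.F it was 8.29 (R.53), 7.95 (R.50), 7.91 (R.51) and 7.78 (R.52). All 4 exceeded every healthy animal, and the share of all probe sets that did so was not computed. R.53, the batch 2 array and lowest in MZB1, was highest in CD79B. The difference was 0.97 ± 0.21 (adjusted p = 0.000210), and it passed in every alternative tried. In Siro.F R.13 had 8.59 and the others 7.59 (R.16), 7.55 (R.18) and 7.35 (R.17), inside the healthy range. The Siro.F difference of 0.73 ± 0.20 (adjusted p = 0.0121) fell to 0.44 ± 0.23 without R.13 (adjusted p = 0.288). In Tac.Mtx.D14 CD79B was 8.02 (R.19), 7.85 (R.21) and 7.38 (R.20), and the difference of 0.82 ± 0.23 missed the threshold (adjusted p = 0.0603), in a comparison where 0.88% of all probe sets passed.

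The CD79B probe sets disagreed. The second reached 5.21 in every array, as the main probe set did, and gave 0.09 ± 0.12 in NoRx.F (95% interval -0.16 to 0.33, adjusted p = 0.657) and 0.16 ± 0.12 in Siro.F (-0.07 to 0.40, adjusted p = 0.447). The intervals exclude the size seen with the main probe set. The correlation between the probe sets was r = 0.08 over all arrays and 0.20 over the 45 healthy animals. The CD79B results therefore hold for the main probe set, and which of the probe sets follows the transcript was not tested.

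FCRLA, the intracellular Fc receptor-like protein, had no call against healthy controls by its main probe set. Healthy values ran from 5.25 to 6.44 with a median of 5.83. The group means spanned 5.36 in KY1005.D14 to 6.21 in NoRx.F. In NoRx.F FCRLA was 6.41 (R.50), 6.26 (R.52), 6.09 (R.53) and 6.07 (R.51), all above the healthy median and inside the healthy range, with a difference of 0.35 ± 0.14 (adjusted p = 0.0547). The second FCRLA probe set gave 0.46 ± 0.10 there (adjusted p = 0.000109), but it passed the filter through 3 NoRx.F arrays alone and correlated with the first at r = 0.22. FCRLA was 5.35 and 5.38 in KY1005.D14, and 5.42 in R.211, 5.51 in R.212 and 5.55 in R.206 of KY1005.F. These were the only neighbours in the order of any member's group means without overlap. They hold few arrays and share R.212, and the share of all probe sets without overlap was not computed.

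**Figure D4:**
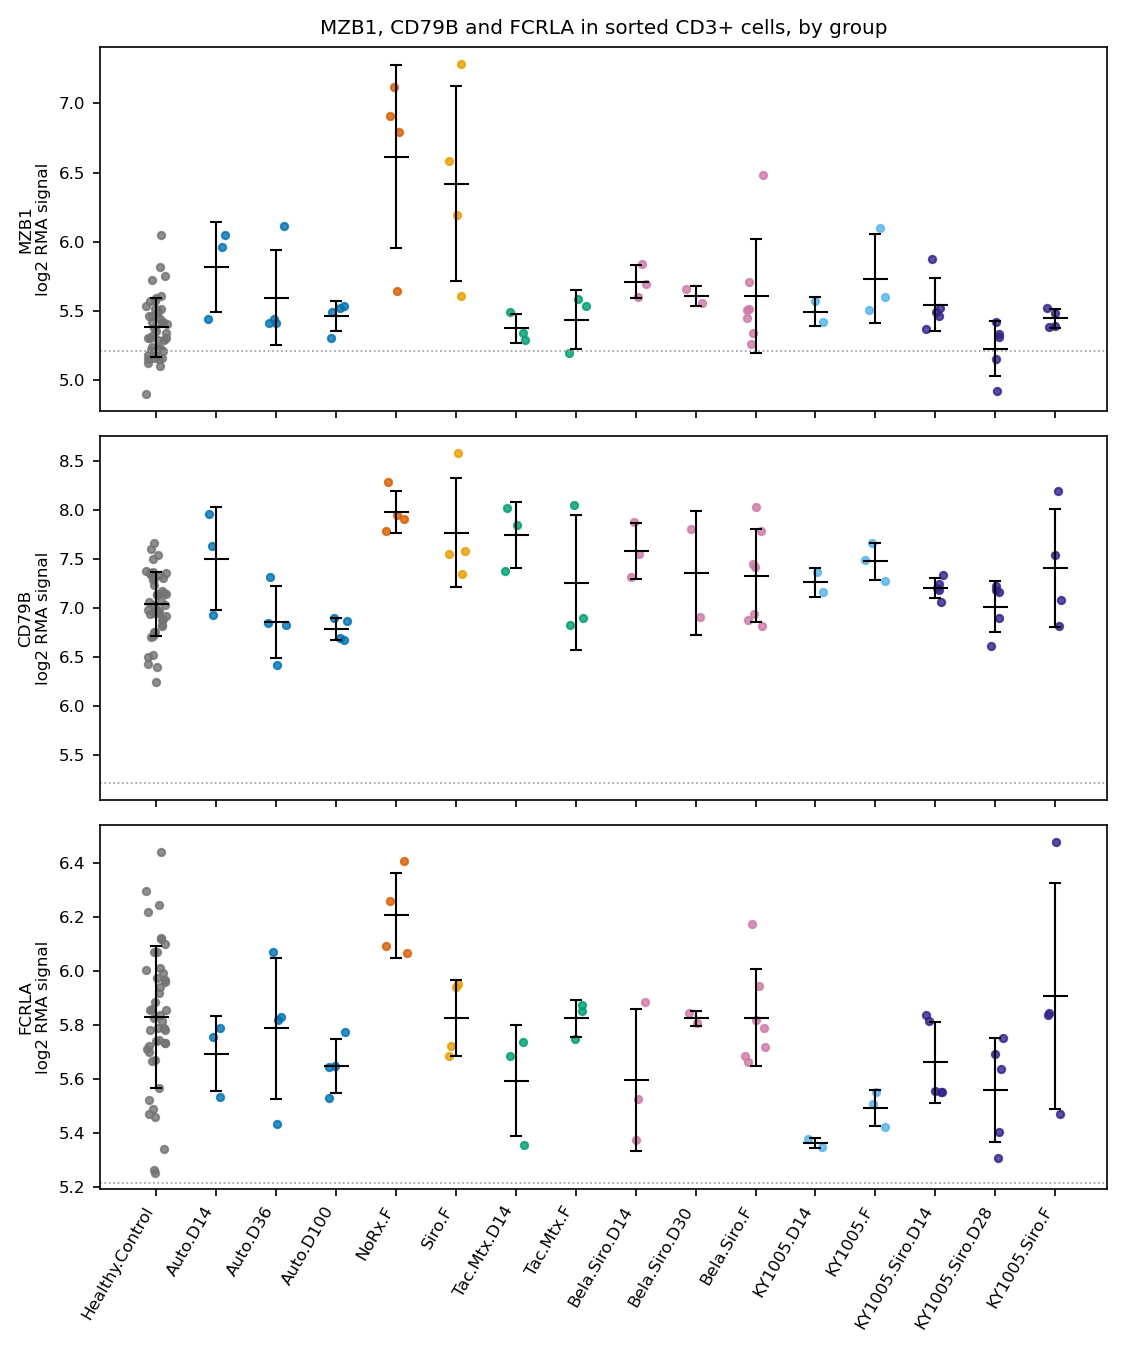
MZB1 (top), CD79B (middle) and FCRLA (bottom) in log2 RMA signal (vertical axis) for each array of the 16 groups (horizontal axis). Horizontal marks are group means, error bars SD, and the dotted line is the median of all values, 5.21. The NoRx.F mean is the highest of all groups in each panel, at 6.62, 7.98 and 6.21.

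Between regimens, 5 of 50 differences of the members passed and all were lower, in 10 comparisons where 2.47% of all differences were called lower and 2.46% higher. All 5 had NoRx.F as the other group. FCRLA was lower in KY1005.F than in NoRx.F by -0.77 ± 0.22 (adjusted p = 0.0169) and MZB1 by -0.96 ± 0.27 (adjusted p = 0.0145), where 8.75% of all probe sets passed. Without R.212 in KY1005.F these were -0.77 (adjusted p = 0.0517) and -0.84 (adjusted p = 0.0815). MZB1 was also lost without R.50 of NoRx.F (-0.80, adjusted p = 0.0574) and reached -1.44 without R.53. In KY1005.Siro.D14 against NoRx.F, where 15.6% of all probe sets passed, CD79B was lower by -1.03 ± 0.30 (adjusted p = 0.0120), FCRLA by -0.60 ± 0.20 (adjusted p = 0.0293) and MZB1 by -1.15 ± 0.24 (adjusted p = 0.000391). The MZB1 difference passed in every alternative tried. CD79B was lost without R.53 of NoRx.F (adjusted p = 0.0521), and FCRLA without R.219 of KY1005.Siro.D14 (0.0592) or without R.50 (0.0751) or R.52 (0.0505) of NoRx.F. The CD79B values ran from 7.06 to 7.34 against 7.78 to 8.29, and those of FCRLA from 5.55 to 5.84 against 6.07 to 6.41. By the second CD79B probe set the difference was -0.20 ± 0.17 (adjusted p = 0.477).

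These comparisons join groups that share no batch, and days differ (6 to 12 against 14 to 23). Without a batch term the 5 differences were of the same sign and passed, from -0.54 for FCRLA to -1.07 for MZB1. MS4A1 and JCHAIN had 0 calls between regimens. Their differences of KY1005.F from Siro.F were -2.57 ± 0.79 (adjusted p = 0.215) and -1.63 ± 0.56 (adjusted p = 0.230), in a comparison where 3 of 31703 probe sets passed (0.00946%). Siro.F and NoRx.F had no member past the threshold, where 6.46% of all probe sets passed. FCRLA there was 5.69 to 5.95 against 6.07 to 6.41 (difference -0.36 ± 0.17, adjusted p = 0.218).

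Over time within a regimen, 1 of 40 differences passed, the MS4A1 rise described above, and 0 were lower, where 1.73% and 0.459% of all differences passed. The change from day 14 to the last arrays was set between KY1005 with sirolimus and autologous transplant by an interaction term. It passed for 0 of 5 members and 0% of all probe sets. For MS4A1 the difference of the changes was 0.17 ± 0.91 (95% interval -1.64 to 1.97), which holds changes of either sign. For CD79B it was 0.93 ± 0.37 (adjusted p = 0.349), with CD79B lower at day 100 than at day 14 in all 3 autologous animals (changes of -1.09 to -0.24) and higher in 2 of 4 KY1005 and sirolimus animals. The larger falls were those of R.201 (-1.09) and R.202 (-0.95), whose day 14 arrays had a high actin ratio.

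The same animal was measured healthy and after transplant in 11 cases, with 18 arrays after transplant. MS4A1 was lower than the animal's own healthy value in 12 of 18 arrays, with a median change of -1.74, and JCHAIN in 14 of 18 with a median of -0.77. MZB1 was higher in 14 of 18 (median 0.36), CD79B higher in 10 (median 0.17), and FCRLA lower in 15 (median -0.31). In the autologous animals R.200 went in MS4A1 from 6.86 healthy to 3.66 at day 14, 3.76 at day 36 and 5.96 at day 100. R.201 went from 5.47 to 3.71, 3.75 and 5.62, and R.202 from 6.96 to 4.05, 4.23 and 3.96. R.200 and R.201 were near or closer to their own healthy values at day 100 and R.202 was not. The day 36 arrays of these animals were in the batch of their healthy arrays, with changes of -3.09, -1.72 and -2.73. The other autologous animals, also in the batch of their healthy arrays, were higher, with R.60 going from 4.88 to 5.99 at day 100 and R.62 from 4.97 to 6.19 at day 30. In the sirolimus animals R.13, R.16 and R.18, MS4A1 was higher than the own healthy value by 1.59, 0.52 and 1.36 and MZB1 by 1.28, 1.03 and 1.81, while JCHAIN changed by -0.06, 0.01 and 2.28. These are descriptions without a test, since 9 of the arrays came from 3 autologous animals and 8 of the 18 lay in another batch than the healthy array.

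**Figure D5:**
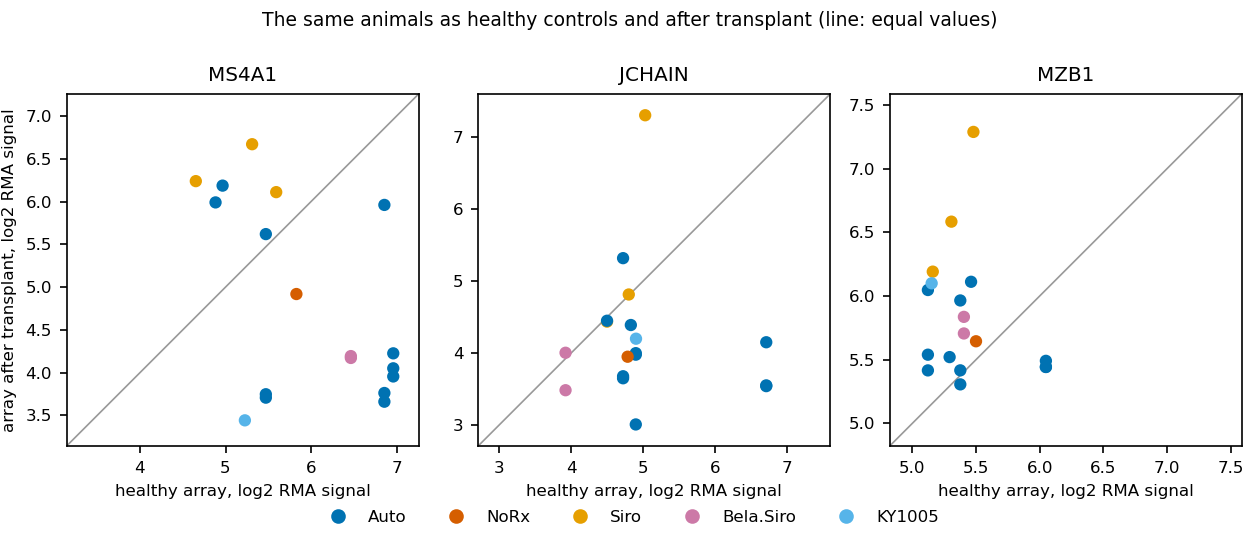
MS4A1, JCHAIN and MZB1 in arrays after transplant (vertical axis) against the same animal's healthy array (horizontal axis), in log2 RMA signal. Points on the line are equal, and colours give the regimen. In MS4A1, 12 of 18 points lie below the line, and the 3 Siro.F animals lie above it in MS4A1 and MZB1.

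Among the 45 healthy animals the members varied together in part. MS4A1 and JCHAIN had the highest correlation of 10 pairs (Pearson r = 0.60, permutation p = 3e-05, adjusted 0.0003; Spearman rho = 0.52, permutation p = 0.00028, adjusted 0.0028). Without the 2 animals farthest from the MS4A1 median r was 0.46, and with values centred on their batch mean 0.58. MZB1 correlated with JCHAIN (r = 0.51, adjusted permutation p = 0.0018; rho = 0.28, adjusted permutation p = 0.0880) and with CD79B (r = 0.44, adjusted permutation p = 0.00547; rho = 0.47, adjusted permutation p = 0.00630). Without the farthest 2 animals these were 0.42 and 0.44. MS4A1 and MZB1 had r = 0.15 (permutation p = 0.310, adjusted 0.310; rho = 0.01, permutation p = 0.967), and 0.41 when all probe sets of a gene were averaged. By r 9 of 10 pairs passed after adjustment and by rho 4 of 10, and with values centred on the batch mean CD79B with FCRLA missed (r = 0.30, adjusted permutation p = 0.0506). Over the 16 group means, which share animals and batches, r was 0.83 for MS4A1 with JCHAIN and 0.69 for CD79B with MZB1, given as a description.

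The genes most like each member were taken as the 3 of 9929 candidates with the highest Pearson r over the 45 healthy animals. For MS4A1 they were BASP1 (0.61), SWAP70 (0.55) and PRKAR2B (0.53), and for JCHAIN BASP1 (0.55), CD22 (0.50) and C16H17orf49 (0.48). For CD79B they were KCTD17 (0.76), DPY19L4 (0.71) and SLC15A2 (0.69), for FCRLA ENTPD1 (0.60), SP7 (0.58) and PARVG (0.56), and for MZB1 PNLIPRP1 (0.62), DENND2A (0.60) and CLDN7 (0.59). Over all arrays r was 0.64 for MS4A1 with SWAP70 and 0.30 with BASP1, and 0.07 for JCHAIN with BASP1. CD22, an inhibitory B cell receptor, is the 1 of these genes that is on the B cell list.

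Other B cell genes were read from a list of 26, of which 10 were measured. Among the others, 9 have no single-gene probe set, PAX5, CR2 and FCER2 included, and 7 stayed below the filter. In Auto.D14, 4 of 10 were lower, where 7.80% of all genes were. They were AFF3, a nuclear factor of lymphoid cells (-1.74 ± 0.49), RALGPS2, an exchange factor for Ral (-1.36 ± 0.33), CD79A, the partner of CD79B (-0.52 ± 0.16) and TNFRSF13B, the receptor TACI (-0.32 ± 0.10). In KY1005.F, KY1005.Siro.D14 and KY1005.Siro.D28, where MS4A1 was called lower, 0 of 10 were called by limma in either direction, with medians of -0.13, -0.20 and -0.10 against -0.05, -0.02 and -0.06 over all genes. CD79A in these groups was -0.11 ± 0.15, -0.36 ± 0.13 and -0.02 ± 0.13. In NoRx.F CD40, a costimulatory receptor, was higher by 0.40 ± 0.13, and in Siro.F FCRL1, an Fc receptor-like protein of B cells, by 0.42 ± 0.12, each 1 of 10. There 27.5% and 8.9% of all probe sets passed in either direction.

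The second MS4A1 probe set past the filter, which reached 5.21 in 8 arrays, 6 of them healthy, and so was tested through the group where it is high, gave -1.26 ± 0.39 (adjusted p = 0.0482) in KY1005.Siro.D14 and -1.55 ± 0.39 (adjusted p = 0.00529) in KY1005.Siro.D28. It missed in Auto.D14 (-1.01 ± 0.49, adjusted p = 0.136) and in KY1005.F (-1.45, adjusted p = 0.0573), and for the rise from day 28 in KY1005.Siro.F it gave 1.83 ± 0.45 (adjusted p = 0.0118). It correlated with the main probe set at r = 0.91 over all arrays. The second JCHAIN probe set stayed below the filter in every array and had r = 0.00 with the first.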

How the data were processed

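The deposited values are log2 signals of 102 arrays. RMA and the affy package are named per the submitters' processing notes, and their versions are not given in the sources used here. RMA normalizes between arrays, so shifts shared by most probe sets are not visible, and no batch adjustment before deposit is stated in the sources used here. The members and gene lists were chosen with earlier results of these data known. limma 3.58.1 (R 4.3.3) was fitted to 31703 probe sets with 16 groups and the batch as terms, leaving out 158 control probe sets, and p-values were adjusted by Benjamini-Hochberg over all of them. A probe set had to reach 5.21 in 3 arrays. Named genes were the members, the list genes that passed and the 3 genes most like each member. Platform annotation gave 24956 probe sets 1 gene, 361 several and 27390 none, and 24616 matched genes of the RefSeq macaque annotation. Correlations used 100000 permutations. The number of arrays limits the precision. Animals recur between groups, and the consensus correlation within an animal was 0.11. The fit was tested on simulated data. Alternatives were other batch, block, filter, prior, weight, scaling and probe set choices, fewer groups or batches, and leaving out each replicate.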

Additional observations from a re-analysis of the deposited data

Results flagged for a closer look

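In 4 of 40 checks (5 genes in 8 groups of 4 to 7 arrays) 1 array stood far from the rest of its group, where chance gives about 1 in 20. JCHAIN in Siro.F was 7.31 in R.18, with the next array at 4.82. MZB1 in Auto.D36 was 6.11 in R.62, with the next at 5.44. R.62 is of batch 2 and day 30, and the other arrays of that group are of batch 4 and day 36. MZB1 in Bela.Siro.F was 6.48 in R.66, with the next at 5.71, and MS4A1 in that group was 5.68 in R.67, with the next at 4.51.

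FCRLA moved in opposite directions in every animal between day 14 and day 100 after autologous transplant (mean -0.04) and between day 14 and the later arrays with tacrolimus and methotrexate (mean 0.23). The means differed by -0.28, and this difference was not tested.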

How the results depend on the processing

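Of 17 called differences of the members, 0 changed sign in any alternative and 5 passed in every one: CD79B and MZB1 in NoRx.F, MZB1 in Siro.F and MS4A1 in KY1005.Siro.D28 against healthy controls, and MZB1 in KY1005.Siro.D14 against NoRx.F. Against healthy controls the 7 lower calls became 14 with array weights, 4 with high-actin arrays removed and 3 within the batches that held the group, and the 4 higher calls became 8 with array weights. Fits within batches also use fewer arrays. Over time the 0 lower calls became 2 with array weights, and the 1 higher call became 0 with only the groups compared and 0 with the animal as a fixed replicate block. Between regimens the 5 lower calls became 8 with array weights, and for the difference of time courses 0 higher calls became 1. The causes of these changes were not tested. Leaving out each replicate gave 5 to 7 lower and 4 to 6 higher calls against healthy controls, 0 to 1 lower and 0 to 2 higher over time, 3 to 5 lower and 0 higher between regimens, and 0 for the time courses. With the animal as a random replicate block all 17 calls passed. The stricter filter gave no value for JCHAIN.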
